A study of Homo sapiens with 238 samples.

Results

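The nuclear RNA polymerases I, II and III are built from subunits encoded by separate genes, and 29 of these genes were followed in 62 poly(A) RNA-seq libraries of K562, an erythroleukemia cell line. The genes were taken from a list by symbol, among the 62696 genes that were counted, and grouped by the enzyme they belong to. There are 6 Pol I genes, 2 shared by Pol I and Pol III, 5 shared by Pol I, II and III, 8 Pol II genes (among them POLR2M, which encodes a Pol II-associated factor) and 8 Pol III genes. No expression cut-off was used, but the list was chosen with earlier results of these data known.

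The study asked what G-quadruplexes (G4s, folded structures of G-rich DNA) do in the enhancers of the α- and β-globin genes. In the α series, αWT (8 libraries) carries no edit, αMut1 (7) and αMut2 (4) carry homozygous mutations of the G4 in the enhancer HS-40, and αRes1 (8), αRes2 (8), αRes3 (4) and αRes4 (4) are clones in which another G4 was inserted into the mutated enhancer. In the β series, βWT (4) carries no edit, and βMut1 (4) and βMut2 (4) carry homozygous mutations of the G4 in the enhancer HS2. WT-HS3Δ (4) lacks the enhancer HS3. βMut-HS3Δ (3), labelled as made from βMut1, has both the HS2 G4 mutation and the HS3 deletion. No RNA-seq library is labelled as an HS3-deleted βMut2 line. The G4-edited lines were made with Cas9 and grown from single sorted cells, and the HS3 deletions were made with a Cas9 nickase. Each line is treated here as 1 clone. The p-values rest on the spread between libraries within lines, estimated jointly over all lines of a fit, and this spread may be technical. The edit and the clone cannot be told apart within a line.

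Pol I transcribes the precursor of the large ribosomal RNAs, Pol II transcribes messenger RNAs and many non-coding RNAs, and Pol III transcribes transfer RNAs, 5S ribosomal RNA and other short RNAs. Each enzyme has a catalytic centre formed by its largest pair of subunits, a set of small subunits used by all enzymes, and peripheral subunits for initiation, a stalk or RNA cleavage. In dividing erythroid cells Pol I and Pol III activity supplies the ribosomes and transfer RNAs used to make globin. The libraries report the messenger RNAs of these genes, not the enzymes or their activity, and in a bulk sample fewer cells with a transcript and less RNA per cell cannot be told apart.

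Of the 29 genes, 22 have an upstream sequence in RefSeq (GRCh38.p14), and 4 are shown because their genes had some of the largest differences described below. Each runs 5′ to 3′ over the 250 bases before the annotated start, with capitals for matches on either strand to 5 motifs: CCGGAAG (the core bound by ETS factors), GGGCGG (the GC box of SP factors), CACGTG (the E-box of MYC and related factors), the NRF1 motif, and a G4 pattern of 4 runs of at least 3 G with 1 to 7 bases between them.
POLR2A promoter, chr17:7484116-7484365, plus strand: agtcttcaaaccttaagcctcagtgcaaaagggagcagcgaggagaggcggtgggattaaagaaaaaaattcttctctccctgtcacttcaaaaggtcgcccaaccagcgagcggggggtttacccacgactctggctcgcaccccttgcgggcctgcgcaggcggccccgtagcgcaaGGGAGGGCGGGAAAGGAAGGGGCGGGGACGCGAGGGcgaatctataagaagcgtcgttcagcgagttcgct
POLR2L promoter, chr11:842530-842779, minus strand: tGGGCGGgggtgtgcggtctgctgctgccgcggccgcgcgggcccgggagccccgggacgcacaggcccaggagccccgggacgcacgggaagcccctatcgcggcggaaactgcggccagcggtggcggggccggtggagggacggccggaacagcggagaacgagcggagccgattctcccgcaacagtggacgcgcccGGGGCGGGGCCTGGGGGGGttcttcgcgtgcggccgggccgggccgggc
POLR1G promoter, chr19:45406394-45406643, plus strand: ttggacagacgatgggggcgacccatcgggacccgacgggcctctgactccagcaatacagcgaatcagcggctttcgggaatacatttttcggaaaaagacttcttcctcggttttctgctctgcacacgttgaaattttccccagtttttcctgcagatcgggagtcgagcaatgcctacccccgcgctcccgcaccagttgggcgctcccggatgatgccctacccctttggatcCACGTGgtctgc
POLR3GL promoter, chr1:145964440-145964689, plus strand: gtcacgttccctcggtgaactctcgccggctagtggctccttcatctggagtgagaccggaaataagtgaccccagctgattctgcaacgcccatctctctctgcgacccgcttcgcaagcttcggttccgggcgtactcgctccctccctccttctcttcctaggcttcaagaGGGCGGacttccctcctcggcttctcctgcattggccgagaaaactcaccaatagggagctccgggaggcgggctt
In the POLR2A sequence the capitals run from base −71 to base −36 before the start, where 3 overlapping G4 patterns hold 2 GC boxes. The POLR2L sequence has a G4 pattern from −49 to −31 that overlaps 1 GC box. The POLR1G sequence has the E-box from −12 to −7. POLR3GL has a GC box from −76 to −71. Over windows of 300 bases (250 before and 50 after the start), the G4 pattern was found in 4 of the 22 members and in 25.0% of all 35116 promoters, the GC box in 14 members and 45.0%, the E-box in 4 members and 7.26%, the ETS core in 8 members and 10.3%, and the NRF1 motif in 3 members and 1.24%. A match describes the letters only.

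The libraries held 4270215 to 48671570 counted reads, and each member had at least 52 reads in each library. Erythroid markers were present throughout (GATA1 at 197 to 363 CPM, read counts scaled to a common library size). Of the megakaryocyte markers, PF4 was at 0 in each library and GP9 at 0.0959 CPM at most. ITGB3 was at 0.377 to 6.79 CPM and ITGA2B at 1.32 to 23.0. Of the granulocyte and monocyte markers, LYZ was at 4.01 to 208 CPM, whereas MPO, ELANE and CD14 reached only 0.483, 0.0754 and 0.566. Of the epithelial markers, EPCAM was at 26.8 to 157 CPM and CDH1 at 0.483 at most. The fibroblast markers COL1A1 and COL1A2 reached 55.0 and 44.7 CPM, with medians of 3.51 and 1.71. Differences between sets of libraries touch the results. In the α series, libraries numbered 5 to 8 differ from those numbered 1 to 4, and αRes1 and αRes2 numbered 5 to 8, αRes3 and αRes4 hold reads on pseudoautosomal genes that the other 46 libraries lack. In the β series, the libraries numbered 1 stood apart for several members. Counts are therefore also given by replicate number. All αWT and αMut1 libraries lack the pseudoautosomal reads. Fits of αRes1 and αRes2 numbered 5 to 8, αRes3 and αRes4 against them therefore still cross that difference.

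Levels were compared between genes only as CPM per kilobase of the canonical transcript, averaged over the 62 libraries. On this scale POLR2L (163), POLR1D (161) and POLR2G (142) were highest, and POLR3F (8.63) and POLR2M (7.68) were lowest. The 5 genes shared by all enzymes had a median of 75.6 CPM per kilobase, the 8 Pol II genes 64.6, the 6 Pol I genes 26.3 and the 8 Pol III genes 17.9. The order rests on the length used: per kilobase of all annotated exons, POLR1D was at 9.02 in place of 161. POLR3G, POLR1G and POLR2A varied most between libraries, by 9.60, 9.46 and 9.15 times in CPM, whereas POLR3D, at 67.6 to 119 CPM, varied by 1.75 times.

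The unedited lines of the series already differed. Against βWT, 16 members were higher in αWT and 5 lower (edgeR's quasi-likelihood test, adjusted p below 0.05 over all genes), where 33.4% of all 18196 genes were higher and 32.6% lower. POLR2A, which encodes the largest Pol II subunit with its C-terminal repeat domain, was at 359 to 448 CPM in the 8 αWT libraries and at 162, 73.0, 78.3 and 69.6 CPM in the 4 βWT libraries. The groups did not overlap, and the first βWT library lay far above the other three. The log2 difference was 2.04 ± 0.20 (SE; edgeR adjusted p = 6.22e-07), and 2.41 without that library. The 141 genes within 5 Mb of POLR2A had a median of 0.26. Without the first βWT library 15 members were higher and 5 lower (33.0% and 32.7%), and with αWT and βWT libraries numbered 1 to 4, 16 and 6 (36.4% and 37.1%). POLR2A lies at chr17:7484366-7514616 and POLR1G at chr19:45406644-45410737 (GRCh38, GENCODE).

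POLR1A, the largest Pol I subunit gene, was at 266 ± 32 CPM (SD, n = 8) in αWT and 90.9 ± 33 (n = 4) in βWT, a log2 difference of 1.53 ± 0.17 (edgeR adjusted p = 2.09e-06). POLR1G, a peripheral Pol I subunit that acts with POLR1E, was at 106 ± 6.5 and 23.7 ± 2.3 CPM, a log2 difference of 2.14 ± 0.08 (edgeR adjusted p = 4.89e-11). POLR3A (0.77), POLR2L (0.83), POLR3G (0.70), POLR1B (0.59) and POLR1F (0.55) were also higher in αWT on the log2 scale. POLR3GL (−0.96), POLR2M (−0.64) and POLR1D (−0.60) were lower. POLR2G was lower too (−0.40), and POLR2C differed by 0.08 ± 0.07 (adjusted p = 0.308).

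**Figure D1:**
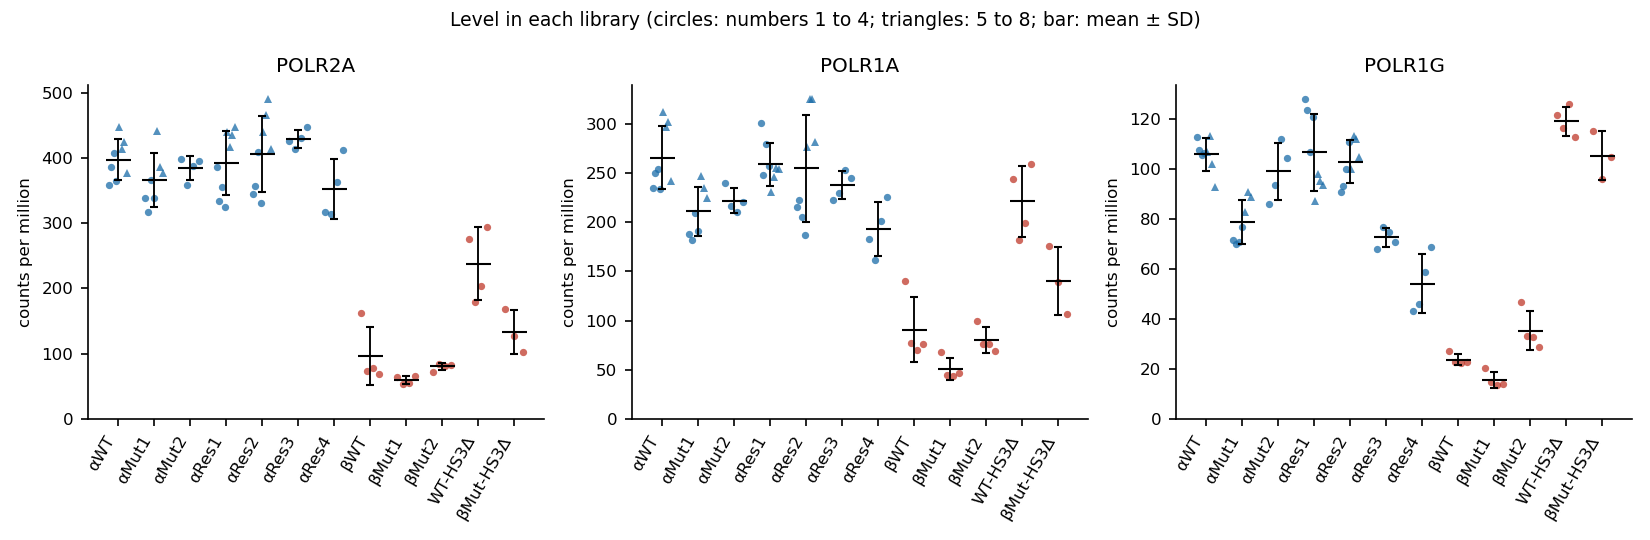
Level of POLR2A, POLR1A and POLR1G in CPM (y axis, from 0) in each of 62 libraries by line (x axis). Blue points are α lines and red points β lines, circles are replicate numbers 1 to 4 and triangles 5 to 8, and bars give the mean ± SD. βWT, βMut1 and βMut2 have the lowest means in the 3 genes, and WT-HS3Δ lies above βWT without overlap.

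In the α series most members with a call were lower in edited lines than in αWT. All 6 comparisons use the same αWT libraries. In αMut1, 0 members were higher and 19 lower, where 21.8% of all 18247 genes were higher and 21.6% lower, and the members' median log2 change was −0.28 against −0.03 for all genes. The split was 1 and 4 in αMut2 (background 11.6% and 13.0%), 1 and 12 in αRes1 (21.1% and 18.6%), 1 and 12 in αRes2 (19.3% and 19.3%), 2 and 18 in αRes3 (27% and 29.1%), and 0 and 15 in αRes4 (29.2% and 29.2%). The count in αMut2 was near or below the background, and the others lay above it on the lower side. DESeq2 also called 0 members higher in αMut1 and in αRes4, and at an unadjusted p under 0.05 there were 0 and 1.

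Within sets of libraries the αMut1 split was 0 and 22 with numbers 1 to 4 (background 29.7% and 29.5%) and 3 and 17 with numbers 5 to 8 (27.7% and 26.1%). For αRes1 it was 3 and 7 (16.5% and 18.7%) and 3 and 21 (33.5% and 33.4%), and for αRes2 3 and 15 (26.6% and 26.4%) and 3 and 15 (28.5% and 28.7%). With αWT numbers 1 to 4, αMut2 had 1 and 6 (13.9% and 15.5%), αRes3 5 and 19 (35.5% and 35.7%) and αRes4 2 and 18 (38.9% and 36.4%). More members were lower than higher in each set. The αRes1 count rose from 10 in the first set to 24 in the second.

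POLR3E, POLR3G and POLR1C fell in each of the 6 edited α lines. POLR3E, a peripheral Pol III subunit that pairs with POLR3D, was at 127 to 187 CPM in αWT (median 155) and 70.8 to 110 CPM in αMut1 (median 85.1), without overlap. Its log2 changes ran from −0.79 ± 0.09 in αMut1 (edgeR adjusted p = 4.13e-09) to −0.51 ± 0.11 in αMut2 (adjusted p = 0.000611), which was −0.30 against αWT numbers 1 to 4. In αRes1 POLR3E was at −0.31 with numbers 1 to 4 and at −0.89 with numbers 5 to 8. The 70 genes within 5 Mb of POLR3E on chromosome 16, the chromosome of the edited enhancer, had median log2 changes of −0.53 in αMut1, −0.17 in αMut2, −0.47 in αRes1, −0.56 in αRes2, −0.43 in αRes3 and −0.62 in αRes4. The part of this regional difference in the POLR3E value was not tested.

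POLR1C, shared by Pol I and Pol III, fell by 0.60 ± 0.07 on the log2 scale in αMut1 (edgeR adjusted p = 1.37e-08) and by 0.89 ± 0.09 in αRes3 (adjusted p = 6.42e-11). Its neighbours within 5 Mb had medians of 0.06 and 0.23 in the same comparisons. In αRes1 it was at −0.15 with numbers 1 to 4 and at −0.73 with numbers 5 to 8. In αMut2 its change was −0.25 (adjusted p = 0.0292), and this call was lost without αMut2 library 1, 2 or 3 or αWT library 5 or 7 (adjusted p between 0.0503 and 0.11). POLR1D, its partner in the assembly, changed by −0.27 to −0.04 across the 6 lines and passed the test in αMut1, αRes2, αRes3 and αRes4. With numbers 1 to 4 it passed in αRes3 and not in the other 3 of these lines.

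Among Pol I genes, 5 of 6 were lower in αMut1, αRes3 and αRes4 and 2 of 6 in αRes1 and αRes2, where 18.6% to 29.2% of all genes were lower. Both αRes1 calls were lost with numbers 1 to 4, where POLR1E was at −0.13 (adjusted p = 0.191). POLR1B, the second largest subunit, changed by −0.46 in αMut1, −0.41 in αRes2, −0.61 in αRes3 and −0.60 in αRes4, each past the test. POLR1G fell by 0.97 ± 0.11 in αRes4 (edgeR adjusted p = 1.63e-09), from 106 ± 6.5 CPM in αWT (n = 8) to 54.0 ± 12 (n = 4). POLR1H, the RNA-cleavage subunit of Pol I, fell by 0.55 in αMut1 and by 0.63 in αRes3, and its value in αRes4 was −0.03. In αRes1 its −0.37 turned to 0.06 (adjusted p = 0.704) with numbers 1 to 4. An antisense gene covers 44.2% of its transcript. POLR1F, of the Pol I stalk, went the other way in αMut2, where it rose by 0.65 ± 0.15 (edgeR adjusted p = 0.00157) to 155 ± 11 CPM (n = 4). αMut2 has numbers 1 to 4 only, and against αWT of the same numbers the rise was 0.34 ± 0.08 (adjusted p = 0.00102). In αRes4 POLR1F fell by 0.74 ± 0.16, to 59.2 CPM by mean. The αWT mean of POLR1F was 120 CPM with numbers 1 to 4 and 77.1 with numbers 5 to 8.

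Of the Pol II genes, POLR2A was at 352 to 429.5 CPM by line mean in the 7 α lines, and its log2 values against αWT lay between −0.18 and 0.12 with no call. POLR2B, the second largest subunit, fell by 0.66 ± 0.12 in αRes4 (edgeR adjusted p = 2.12e-05), from 303 ± 42 to 193 ± 17 CPM, and by 0.27 to 0.39 in αMut1, αRes1, αRes2 and αRes3. The αWT mean of POLR2B was 339 CPM with numbers 1 to 4 and 267 with numbers 5 to 8. POLR2D and POLR2G form the Pol II stalk. POLR2D fell by 0.22 to 0.52 in αMut1 and the 4 αRes lines, but in αRes1 it was at −0.04 with numbers 1 to 4 and at −0.43 with numbers 5 to 8. POLR2G fell by 0.16 to 0.24 in αMut1, αRes1, αRes2 and αRes3, with 0.01 in αRes4. With numbers 1 to 4 POLR2G did not pass in these lines (−0.01, −0.14, −0.05 and −0.15), and with numbers 5 to 8 it was at −0.29, −0.27 and −0.31 in αMut1, αRes1 and αRes2.

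POLR2C, a core assembly subunit, fell by 0.31 in αMut1 and by 0.32 in αRes1, with −0.25 (adjusted p = 0.0729) in αRes2. In αMut1 it was at −0.46 with numbers 1 to 4 and at −0.09 (adjusted p = 0.219) with numbers 5 to 8, and in αRes1 at −0.01 (adjusted p = 0.93) and −0.76. POLR2I, of the RNA-cleavage module, rose by 0.21 in αRes3.

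Of the subunits shared by all 3 enzymes, POLR2H fell by 0.61 ± 0.10 in αRes3 (edgeR adjusted p = 1.45e-06) and POLR2K fell by 0.65 ± 0.14 (adjusted p = 0.000162). POLR2K was at 45.7, 37.5, 37.4 and 43.4 CPM in αRes3 and 59.5 to 72.1 in αWT, without overlap. Its 47 neighbours on chromosome 8 had a median of −0.42 in that comparison. POLR2E rose by 0.29 in αRes1 and fell by 0.40 in αRes4, and POLR2L rose by 0.26 in αRes2, at 0.40 with numbers 1 to 4 and 0.16 (adjusted p = 0.0503) with numbers 5 to 8.

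POLR3C, of the initiation trimer of Pol III, fell by 0.81 ± 0.14 in αMut1 (edgeR adjusted p = 9.45e-06) and by 1.05 ± 0.17 in αRes3 (adjusted p = 2.08e-06). It was at 95.1 ± 6.7 CPM in αWT (n = 8), 54.8 ± 7.6 in αMut1 (n = 7), 91.5 ± 6.4 in αMut2 (n = 4) and 45.7 ± 1.7 in αRes3 (n = 4). POLR3B, the second largest Pol III subunit, fell by 0.59 in αRes3 and by 0.97 ± 0.16 in αRes4, where it was at 29.5 ± 4.5 against 57.7 ± 13 CPM. The αWT mean of POLR3B was 68.7 CPM with numbers 1 to 4 and 46.7 with numbers 5 to 8. Its αRes3 libraries (36.6 to 39.6 CPM) overlapped the αWT range (36.2 to 74.9). POLR3F, the other constant member of the trimer, fell by 0.27 to 0.46 in αMut1 and αRes1 to αRes3.

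**Figure D2:**
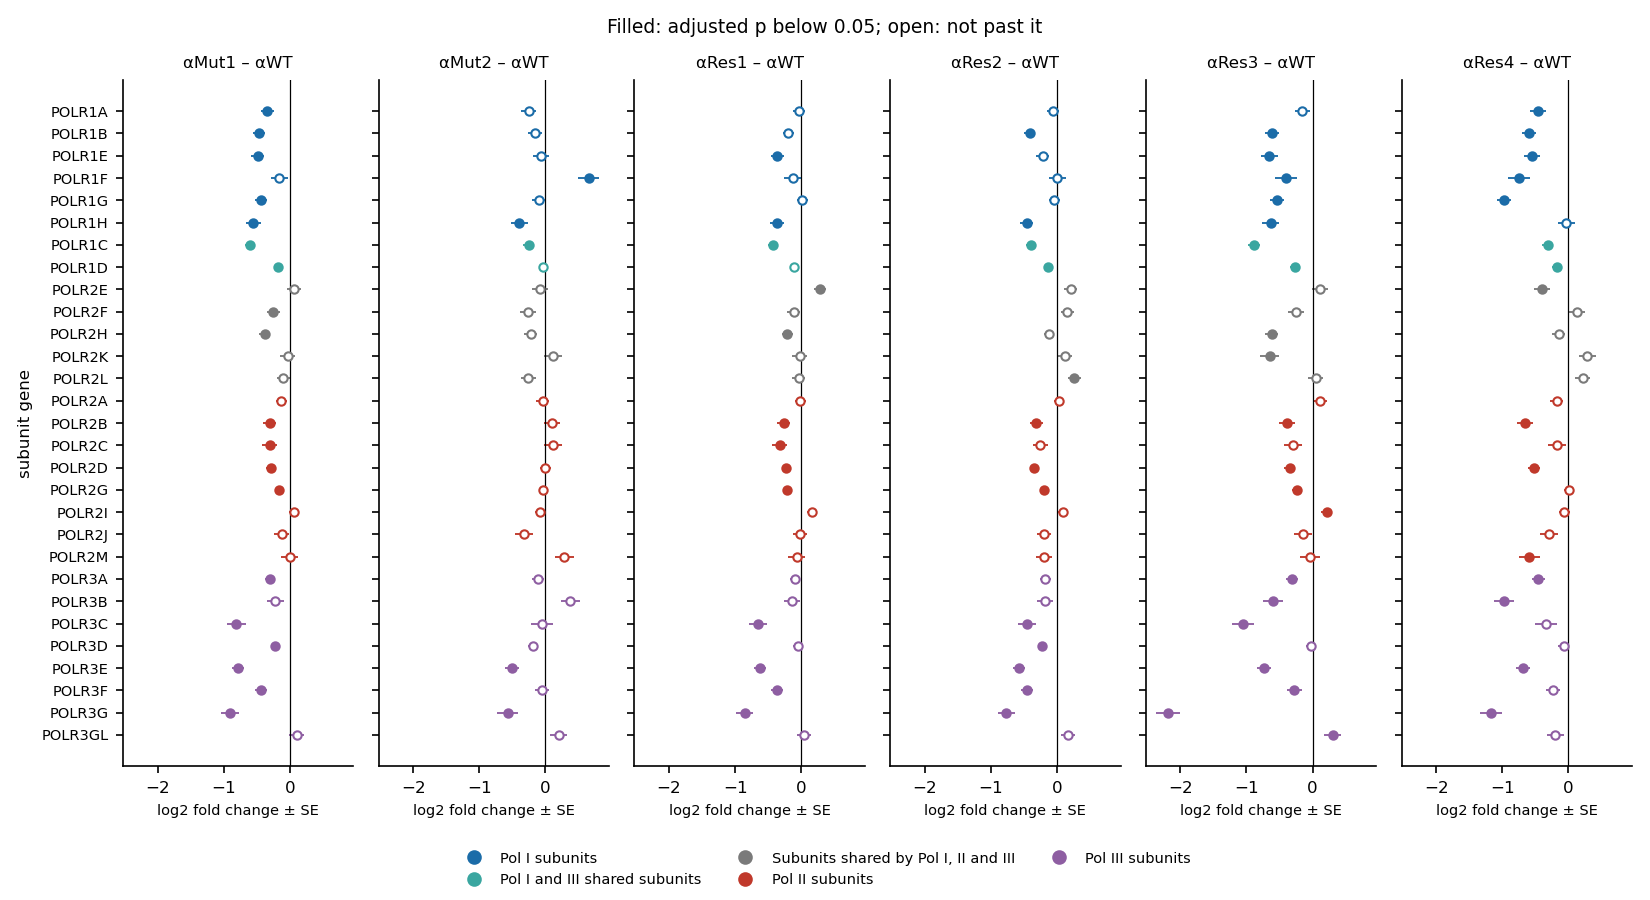
Log2 fold change against αWT (x axis, ± SE) of the 29 subunit genes (y axis, coloured by enzyme) in 6 edited α lines, each against the same 8 αWT libraries. Filled points passed an adjusted p of 0.05 and open points did not; most filled points lie left of 0, and POLR3G in αRes3 at −2.19 is farthest.

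The comparison of αRes lines with αMut1, the line they were made from, asks what changed with the inserted G4. In αRes1, 1 member was higher and 0 lower (background 1.57% and 3.48%; at an unadjusted p under 0.05, 8 higher and 0 lower, and with DESeq2 2 and 0). That member was POLR1G, at 0.46 ± 0.09 (edgeR adjusted p = 0.00102), and it was at 0.10 (adjusted p = 0.22) with numbers 5 to 8. The pooled count hides libraries that went opposite ways. With numbers 1 to 4 alone, 22 members were higher and 0 lower (background 26.1% and 28.8%), and with numbers 5 to 8 alone, 1 was higher and 12 lower (24.1% and 22.6%).

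POLR3C showed this most plainly. It was at 83.9, 82.0, 76.9 and 79.3 CPM in αRes1 libraries 1 to 4 and at 40.2, 40.0, 40.1 and 39.5 in libraries 5 to 8. In αMut1 it was at 48.0, 47.7, 48.6 and 51.6 in libraries 1 to 4 and at 65.2, 62.6 and 60.3 in libraries 5 to 7. The sets did not overlap in either line, and they moved in opposite directions. The log2 difference of αRes1 from αMut1 was 0.73 ± 0.07 in the first set (edgeR adjusted p = 6.04e-10) and −0.65 ± 0.05 in the second (adjusted p = 3.25e-10). POLR2C likewise gave 0.46 and −0.68, and POLR1E, the partner of POLR1G, 0.49 and −0.36.

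In αRes2, 6 members were higher than in αMut1 and 0 lower (background 8.37% and 10.5%; DESeq2 called 6 and 0, and 9 and 0 had an unadjusted p under 0.05). These were POLR1G (0.40), POLR2F (0.40), POLR2L (0.36), POLR2H (0.26), POLR1A (0.29) and POLR1C (0.20), of which POLR2F, POLR2L and POLR2H encode small subunits shared by all enzymes. Within sets the split was 11 and 0 for numbers 1 to 4 (18.0% and 20.7%) and 4 and 5 for numbers 5 to 8 (16.5% and 18.1%). POLR1G was higher in both, by 0.45 and 0.29, and POLR1C by 0.19 and 0.18. With numbers 5 to 8, POLR2F (0.13, adjusted p = 0.11), POLR2H (0.07, adjusted p = 0.391) and POLR2L (0.19, adjusted p = 0.0525) did not pass, and with numbers 1 to 4 POLR1A did not (0.11, adjusted p = 0.29). With the replicate numbers as a block POLR1C did not pass (0.20, adjusted p = 0.0665), and POLR1E, POLR1F and POLR3C did, at 0.29, 0.22 and 0.37. Without αMut1 library 1, 3 or 4 the count fell to 3, since POLR2H, POLR1A and POLR1C no longer passed.

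In αRes3, 1 member was higher than in αMut1 and 3 lower (15.9% and 15.6%), with POLR3G at −1.28, POLR2K at −0.62 and POLR1C at −0.29. αMut1 libraries 1 to 4 alone gave 9 higher and 7 lower (27.9% and 28.3%). In αRes4, 7 were higher and 7 lower (24.7% and 24.6%). POLR3B (−0.76), POLR2M (−0.59), POLR1F (−0.58) and POLR1G (−0.53) were lower, and POLR1H (0.52) and POLR3C (0.47) were higher. The count was 9 without αRes4 library 2. With αMut1 numbers 1 to 4, 9 were higher and 8 lower (33.1% and 32.8%).

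**Figure D3:**
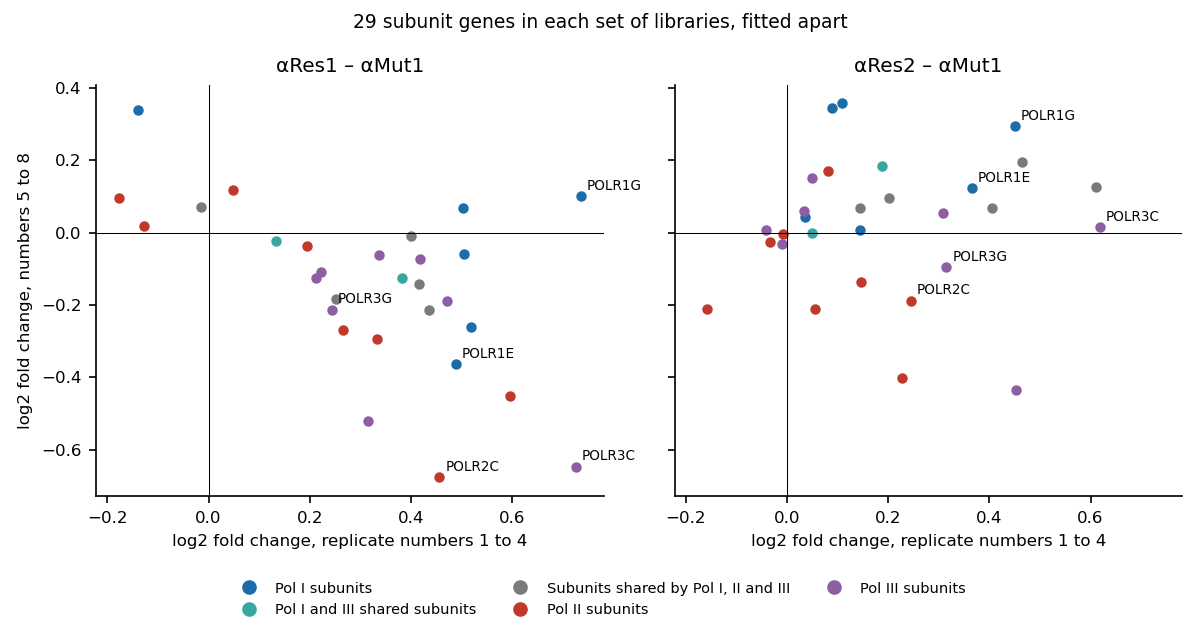
Log2 fold change of the 29 subunit genes in αRes1 (left) and αRes2 (right) against αMut1, fitted with replicate numbers 1 to 4 (x axis) and 5 to 8 (y axis) apart. In αRes1 most points lie right of 0 and below 0, as POLR3C at 0.73 and −0.65; in αRes2 POLR1G at 0.45 and 0.29 is above 0 on both axes.

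The HS2 G4 mutant lines were set against βWT, which also serves the HS3 comparisons. In βMut1, 7 members were higher and 9 lower (background 23.8% and 21.0% of 17535 genes). In βMut2, 15 were higher and 3 lower (27.1% and 26.3%), with a median log2 change of 0.18 against 0.00 for all genes. With the libraries numbered 1 left out of each β line, the splits were 12 and 11 (32.3% and 28.7%) and 17 and 8 (31.7% and 32.6%). The βMut1 count was 9 without βMut1 library 3 and 10 without βWT library 1.

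In βMut1, 4 of 6 Pol I genes fell. POLR1A was at 67.7, 44.7, 43.4 and 47.0 CPM in βMut1 and at 140, 76.9, 70.0 and 76.3 in βWT, and fell by 0.81 ± 0.21 on the log2 scale (edgeR adjusted p = 0.00576). POLR1B fell by 0.55 ± 0.09, POLR1F by 0.38 ± 0.06 and POLR1G by 0.57 ± 0.14. POLR2J (0.49), POLR2G (0.40) and POLR2I (0.38), small Pol II subunit genes, rose. POLR2J has near-identical copies, and exons of TBCB and other genes cover 47.4% of POLR2I on the other strand, so both counts are less certain. POLR2A was at −0.65 ± 0.23 (adjusted p = 0.0298), but this rested on 1 library: without βWT library 1 it was at −0.26 (adjusted p = 0.216). The call was also lost without βMut1 library 2 or 3 (−0.60 and −0.63).

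In βMut2 the small shared subunits rose, 4 of 5 past the test with a median of 0.81. POLR2L was at 136, 202, 196 and 200 CPM in βMut2 and at 65.0, 80.5, 88.3 and 86.4 in βWT, without overlap. It rose by 1.23 ± 0.14 on the log2 scale (edgeR adjusted p = 1.08e-06), POLR2F by 0.96 ± 0.11, POLR2K by 0.81 ± 0.16 and POLR2H by 0.77 ± 0.13. POLR2E, the remaining one, was at 0.10. Of the Pol II genes, POLR2I (0.57), POLR2J (0.54), POLR2G (0.41), POLR2C (0.18) and POLR2D (0.18) rose, whereas POLR2A was at −0.22 ± 0.23 (adjusted p = 0.425). POLR1C (0.70), POLR1G (0.61) and POLR1H (0.61) rose too. POLR3D fell by 0.34, POLR3C by 0.15 and POLR3GL by 0.54.

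Median log2 changes by transcript length moved in the same comparison. Protein-coding genes in the shortest 20% (up to 1775 bases) had a median of 0.25 in βMut2 and those in the longest 20% (from 5687 bases) −0.30, with 0.20 and −0.22 in βMut1. POLR2L, POLR2K, POLR2G, POLR2I and POLR2J have canonical transcripts of 876, 947, 791, 443 and 937 bases, and POLR1A and POLR2A have 12480 and 6312. Other members that rose in βMut2 have 851 (POLR1H) to 5038 bases (POLR2D), with 2070 for POLR2F, 3290 for POLR3G and 1807 for POLR2H. POLR1D, with 693 bases, was at 0.20 in βMut2. The part of transcript length in these values was not tested.

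Among the edited lines, deletion of HS3 went with the broadest rise. In WT-HS3Δ 21 members were higher than in βWT and 3 lower (background 33.2% and 36.2%), with a median log2 change of 0.52 against −0.03 for all genes. In βMut-HS3Δ 23 were higher and 1 lower (32.1% and 33.3%), with a median of 0.56. Without the libraries numbered 1 the splits were 24 and 3 (39.4% and 36.6%) and 25 and 1 (37.6% and 35.4%). Of 6 Pol I genes, 5 and 6 were higher in the 2 lines, of the 5 shared by all enzymes 4 and 5, of 8 Pol II genes 6 and 5, and of 8 Pol III genes 5 and 6.

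POLR1G changed most. It was at 27.1, 22.9, 22.2 and 22.6 CPM in βWT, at 121, 116, 126 and 113 in WT-HS3Δ, and at 115, 95.7 and 105 in βMut-HS3Δ. Neither deleted line overlapped βWT. The log2 changes were 2.38 ± 0.14 (edgeR adjusted p = 1.35e-11) and 2.18 ± 0.14 (adjusted p = 9.77e-11). In αWT, which is also unedited, POLR1G was at 92.7 to 113 CPM, POLR1A at 234 to 312.5 and POLR2A at 359 to 448. ERCC1, whose exons cover 56.4% of the POLR1G transcript on the other strand, was at −0.14 ± 0.07 (adjusted p = 0.0571) in WT-HS3Δ and fell by 0.30 ± 0.07 (adjusted p = 0.00103) in βMut-HS3Δ.

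POLR2A was at 276, 179, 203 and 295 CPM in WT-HS3Δ and at 169, 128 and 103 in βMut-HS3Δ. WT-HS3Δ lay above each βWT library, while βMut-HS3Δ overlapped the first of them. The log2 changes were 1.36 ± 0.23 (edgeR adjusted p = 3.35e-05) and 0.50 ± 0.24 (adjusted p = 0.0778), and without the libraries numbered 1 they were 1.72 and 0.68 (adjusted p = 6.31e-12 and 8.51e-05). POLR1A was at 244, 183, 199 and 259 CPM in WT-HS3Δ and at 176, 140 and 107 in βMut-HS3Δ, with log2 changes of 1.33 ± 0.21 and 0.66 ± 0.22. The βMut-HS3Δ call of POLR1A was lost without βMut-HS3Δ library 1 (0.46, adjusted p = 0.102). POLR2A and POLR1A thus spread more between libraries of 1 line than POLR1G did.

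Other rises of at least 0.5 in WT-HS3Δ were POLR2F (0.97), POLR2E (0.96), POLR1B (0.91), POLR2L (0.85), POLR3G (0.84), POLR2C (0.82), POLR3A (0.82), POLR3B (0.74), POLR1F (0.73), POLR1C (0.71), POLR1E (0.59), POLR3E (0.52) and POLR2I (0.51). POLR2C, at 216 ± 5.3 CPM against 127 ± 8.0 (n = 4 each), had one of the smallest errors (0.82 ± 0.05, edgeR adjusted p = 1.27e-10). POLR2M (−0.40), 31.6% of whose transcript GCOM1 shares on the same strand, POLR3GL (−0.36) and POLR1D (−0.31) fell, and POLR2G was at −0.07. In βMut-HS3Δ the rises beyond 0.5 were, with POLR1G and POLR1A, POLR3G (1.57), POLR2F (1.22), POLR2L (1.09), POLR1F (0.97), POLR1B (0.92), POLR1C (0.92), POLR2K (0.86), POLR2E (0.77), POLR2I (0.74), POLR2J (0.72), POLR2H (0.68), POLR2C (0.64), POLR1H (0.56), POLR2D (0.53), POLR3A (0.52) and POLR1E (0.52). POLR3A did not pass without βMut-HS3Δ library 1 (0.37, adjusted p = 0.0627), nor POLR1H without library 3 (0.46, adjusted p = 0.0551). POLR3GL alone fell, by 0.56.

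By GC content, protein-coding genes in the lowest 20% (up to 40.5% GC) had a median log2 change of −0.27 in WT-HS3Δ and those in the highest 20% (from 58.7%) 0.26, and for αWT against βWT these were −0.31 and 0.30. The 175 and 182 genes in the top 20% of both GC content and length had medians of 0.20 and 0.66. The transcripts of POLR2A, POLR1G and POLR1A have 56.4%, 54.9% and 51.9% GC, and POLR3G, which rose, has 34.3%. The part of GC content was not tested.

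**Figure D4:**
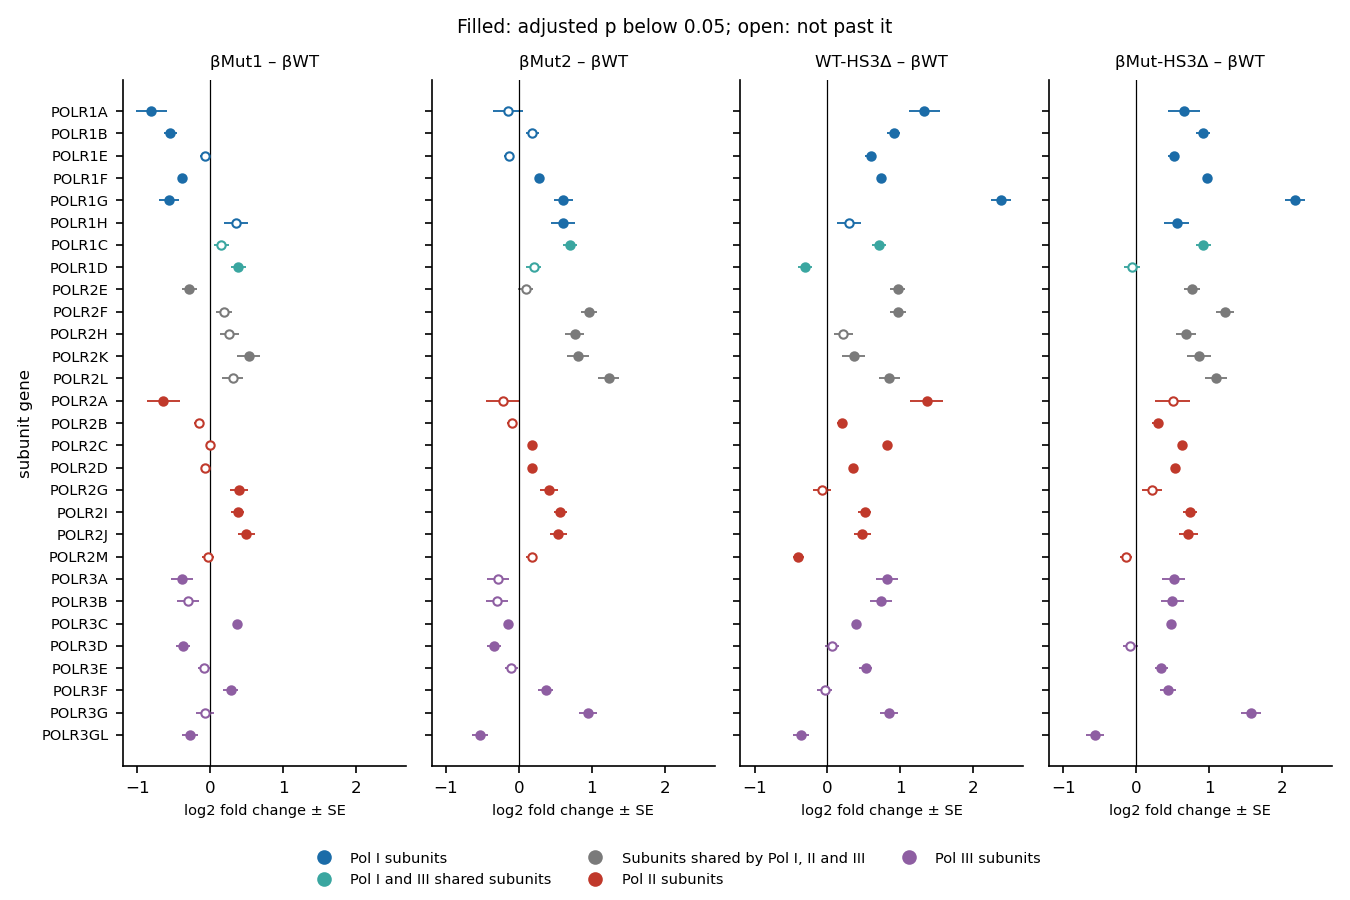
Log2 fold change against βWT (x axis, ± SE) of the 29 subunit genes (y axis, coloured by enzyme) in 4 edited β lines, each against the same 4 βWT libraries. Filled points passed an adjusted p of 0.05; most points of the 2 HS3-deleted lines lie right of 0, with POLR1G at 2.38 and 2.18.

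Between the HS3-deleted lines, which differ in the HS2 G4 mutation, 7 members were higher in βMut-HS3Δ and 3 lower (background 15.5% and 15.6%). POLR3G rose by 0.73 ± 0.13 (edgeR adjusted p = 0.000365) and POLR3F by 0.47 ± 0.11 (adjusted p = 0.00309). POLR2A was at −0.86 ± 0.25 (adjusted p = 0.0146), a call lost without βMut-HS3Δ library 2 or 3 (−0.83 and −0.70). POLR1A was at −0.67 (adjusted p = 0.0302), a call lost without βMut-HS3Δ library 2 or 3 or WT-HS3Δ library 1 or 4. The count fell to 4 without βMut-HS3Δ library 2 or 3 or WT-HS3Δ library 1, and with the libraries numbered 1 left out it was 15 higher and 11 lower (23.7% and 30.0%).

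The interaction asks whether the HS2 G4 mutation went with another change on the HS3-deleted background than on the intact one. It passed for 5 members (4 higher, 1 lower, background 9.04% and 8.47%). POLR3G had 0.81 ± 0.18 (edgeR adjusted p = 0.00432), as it was at −0.07 in βMut1 against βWT and at 0.73 in βMut-HS3Δ against WT-HS3Δ. POLR1F had 0.62 ± 0.08 (adjusted p = 1.89e-05), from −0.38 and 0.24, and POLR1B 0.56 ± 0.13 (adjusted p = 0.00463), from −0.55 and 0.01. POLR2D (0.25) and POLR3C (−0.27) passed with smaller values. Both calls were lost without βMut1 library 4 or βMut-HS3Δ library 2, where the count was 3. Without the libraries numbered 1, 7 were higher and 3 lower (14.0% and 19.8%), among them POLR2A at −0.75 (adjusted p = 0.00283), which was at −0.21 (adjusted p = 0.734) with each library.

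The medians of all genes differed by GC content in both comparisons. Between the HS3-deleted lines, genes in the lowest 20% by GC had a median of 0.18 and those in the highest −0.24, and long GC-rich genes −0.45. For the interaction these were 0.16, −0.18 and −0.34. POLR3G and POLR1F, with the highest interaction values, have 34.3% and 37.0% GC, and POLR2A, lower in βMut-HS3Δ, has 56.4%. POLR1B, which also passed the interaction, has 42.97%. POLR2H went the other way, since it has 60.15% GC and was higher in βMut-HS3Δ (169.0 CPM by mean) than in WT-HS3Δ (120.3 CPM). The POLR2H call was lost without βMut-HS3Δ library 3 or WT-HS3Δ library 1. The part of GC content in these values was not tested.

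POLR3G and POLR3GL encode alternative forms of 1 Pol III subunit, the former known from stem and tumour cells and the latter from differentiated tissues. POLR3G lies at chr5:90471748-90514557. In the α series it fell in each edited line. It was at 61.0 to 87.1 CPM in αWT (median 69.3), 34.3 to 42.6 in αMut1, 45.3 to 49.5 in αMut2, 27.5 to 57.7 in αRes1 and 30.5 to 59.2 in αRes2. In αRes3 it was at 16.6, 14.4, 15.3 and 15.9 CPM and in αRes4 at 32.3, 35.3, 30.0 and 28.9. None of the edited α libraries reached the αWT range.

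The log2 changes of POLR3G were −0.91 ± 0.13 in αMut1, −0.57 ± 0.16 in αMut2, −0.85 ± 0.13 in αRes1, −0.77 ± 0.13 in αRes2, −2.19 ± 0.18 in αRes3 (edgeR adjusted p = 1.59e-13) and −1.17 ± 0.17 in αRes4. The size rested on the set of libraries. With numbers 1 to 4 POLR3G was at −0.63 in αMut1, −0.39 in αRes1 and −0.32 in αRes2, and with numbers 5 to 8 at −1.17, −1.38 and −1.26, each past the test. αMut2 was at −0.41 against αWT numbers 1 to 4. The 28 genes within 5 Mb on chromosome 5 had medians of −0.65 in αRes3 and between −0.10 and 0.16 in the other 5 lines. The part of this regional difference in αRes3 was not tested. POLR3GL was at 16.8 to 23.6 CPM by line mean in the 7 α lines, and passed only in αRes3 (0.30, adjusted p = 0.0486).

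In the β series the gene pair moved apart. POLR3G was at 34.3, 47.5, 47.9 and 43.6 CPM in βWT, at 67.0, 91.2, 85.6 and 82.8 in βMut2, at 69.5, 81.1, 80.2 and 70.1 in WT-HS3Δ, and at 110.0, 132 and 139 in βMut-HS3Δ. It rose by 0.94 ± 0.13, 0.84 ± 0.13 and 1.57 ± 0.13 in these 3 lines and was at −0.07 in βMut1. POLR3GL fell in all 4 edited lines, from 37.1 ± 2.0 CPM in βWT (n = 4) to 29.9 ± 5.5, 25.0 ± 4.1, 28.0 ± 2.7 and 24.7 ± 1.3 (n = 4, 4, 4 and 3). Of its transcript, 32.4% lies in exons of another gene on the same strand, so its counts are less certain.

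Per kilobase, the ratio of POLR3G to POLR3GL (geometric mean over libraries) was 1.32 in αWT and 0.415 in βWT. It was 0.666 in αMut1, 0.775 in αMut2, 0.688 in αRes1, 0.685 in αRes2, 0.674 in αRes4 and 0.236 in αRes3. In the β series it was 0.482 in βMut1, 1.17 in βMut2, 0.963 in WT-HS3Δ and 1.83 in βMut-HS3Δ. By mean, αRes3 was lowest and stood apart, and βWT and βMut1 followed and overlapped. Then came the other 5 edited α lines, and then WT-HS3Δ, βMut2, αWT and βMut-HS3Δ. The 5 edited α lines overlapped each other and βMut2. αMut1 reached into the βWT range, and αMut1, αRes1, αRes2 and αRes4 into that of βMut1. WT-HS3Δ overlapped αMut1 and αRes2. On the log2 scale the libraries of βMut-HS3Δ (0.64 to 1.03) overlapped those of αWT (0.09 to 0.97).

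**Figure D5:**
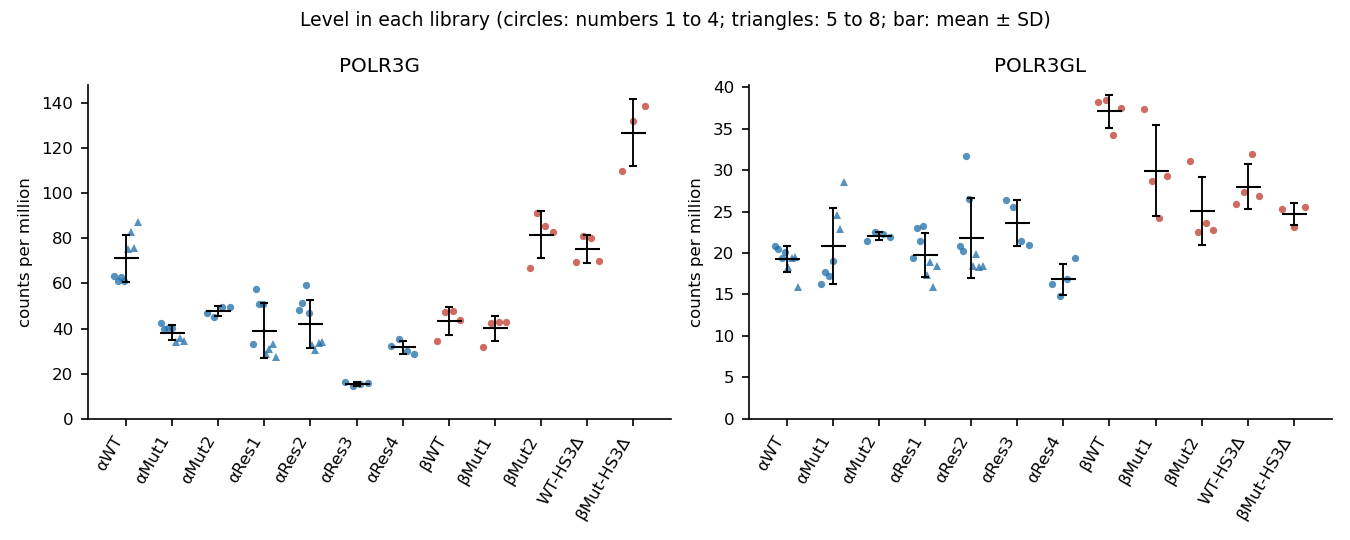
Level of POLR3G (left) and POLR3GL (right) in CPM (y axes, from 0, on their own scales) in each library by line (x axis). Circles are replicate numbers 1 to 4, triangles 5 to 8, and bars the mean ± SD; POLR3G is lowest in αRes3 (15.5) and highest in βMut-HS3Δ (127), and POLR3GL is highest in βWT (37.1).

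Other genes of the transcription machinery were counted by list, to be read against the shares of all genes higher and lower, 21.8% and 21.6% in αMut1, 11.6% and 13.0% in αMut2, 29.2% and 29.2% in αRes4, 33.2% and 36.2% in WT-HS3Δ, and 32.1% and 33.3% in βMut-HS3Δ. Of 7 Pol I initiation factor genes, 4 were lower in αMut1, 1 in αMut2 and 5 in αRes4 with 1 higher, 5 were higher and 1 lower in WT-HS3Δ, and 5 and 1 in βMut-HS3Δ. UBTF, which binds ribosomal DNA, rose by 1.46 in WT-HS3Δ and by 1.12 in βMut-HS3Δ, and RRN3, which brings Pol I to its promoter, fell by 0.85 in αMut1. POLR3K, of the Pol III cleavage module, rose by 0.79 in WT-HS3Δ and by 1.06 in βMut-HS3Δ, and fell by 0.34 in αMut1.

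Of 31 genes of Pol II initiation factors, 1 was higher and 15 lower in αMut1 (median −0.20), 2 and 5 in αMut2 (median 0.02), and 10 and 7 in WT-HS3Δ (median −0.01), the last under the share of all genes in both directions. Of 26 genes of pausing, elongation and the C-terminal domain, 1 was higher and 5 lower in αMut1, under the share of all genes, 2 and 1 in αMut2, 1 and 16 in αRes4, and 16 and 5 in WT-HS3Δ. TCEA1, an elongation factor that helps stalled Pol II cleave its RNA, fell by 1.21 in WT-HS3Δ, and HEXIM1, an inhibitor of the pause-release kinase, rose by 1.27. Of 16 Pol III factor genes, 1 was higher and 5 lower in αMut1, and 1 was lower in αMut2. The split was 2 and 1 in αRes1, 1 and 4 in αRes2, 1 and 4 in αRes3, and 2 and 8 in αRes4. In WT-HS3Δ 10 were higher and 3 lower. GTF3C6, of the factor that binds transfer RNA genes, rose by 1.35 in WT-HS3Δ and by 1.30 in βMut-HS3Δ, and SNAPC3, of the complex at U6-type promoters, fell by 0.93 and 0.95.

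Of 15 genes of polymerase assembly and import, 8 were lower in αMut1 (RPAP2 at −0.56), 2 were higher in αMut2, and 9 were higher and 1 lower in WT-HS3Δ (GPN2 at 0.75). Of 4 genes of mitochondrial transcription, which uses a separate polymerase, 3 were lower in αMut1, 1 in αMut2 and 3 higher in WT-HS3Δ, among them TFB2M (−0.77 in αMut1 and 0.87 in WT-HS3Δ).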

How the data were processed

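RNA was measured in 62 poly(A) libraries of 12 K562 lines, grouped by the sample labels. The authors trimmed paired 51-base reads below quality 20 with cutadapt, aligned them to hg38 with bwa mem, marked duplicates with Picard, and deposited raw counts per gene from featureCounts with GENCODE 42. Neither the strand setting nor the treatment of multiply matching reads was given in the sources used here. Names and positions were taken from GENCODE 44.

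Counts were fitted with edgeR 4.0.16 (quasi-likelihood test, TMM scaling, R 4.3.3) in genes with a mean of at least 10 reads per library. The α series (43 libraries, 18247 genes), the β series (19 libraries, 17535 genes) and αWT against βWT (18196 genes) were fitted apart, and p-values were adjusted by Benjamini-Hochberg over all genes of a fit, at 0.05. CPM values use 1 TMM scaling of all 62 libraries. Tests were checked on simulated counts. The members and lists were chosen with earlier results of these data known. Members named with a change were those with the smallest adjusted p or a log2 change beyond 0.5, and POLR2A, POLR2C, POLR2G, POLR3G and POLR3GL; others named to describe an enzyme's subunits were chosen after their values were seen. Alternatives were DESeq2 1.42.0, RLE size factors, no count minimum, only the lines compared, a replicate block, each library left out, and sets of replicate numbers. The numbers 1 to 4 for αRes3 and αRes4 and the β libraries numbered 2 to 4 were added after seeing the data.

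Samples were taken as paired by number where each same-numbered correlation of deviations was above 0.1. This held for αRes2 and αMut1 (7 numbers, 0.125 to 0.256). In 6 other comparisons each correlation was above 0, the lowest lying between 0.0572 and 0.0972, and the β libraries numbered 1 deviated together. For αRes2 and αMut1, with the replicate block, 8 members were higher and 0 lower in place of 6 and 0. Between αRes1 and αMut1 each of 7 correlations was below 0 (−0.444 to −0.206). By that threshold the other comparisons were not taken as paired. The main fits used the line only, also for αRes2 and αMut1. That 16 libraries were counted with another reference was inferred from their pseudoautosomal counts and is not stated by the authors. The chromatin data of the series were not used here.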

Additional observations from a re-analysis of the deposited data

Results flagged for a closer look

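A library was set apart where its gap to the nearest other library of its line exceeded Dixon's critical value, which chance does in about 1 in 20 groups. Of 319 groups of members and lines tested, 26 were set apart, and most of these were the β libraries numbered 1. Each value is in CPM, with the nearest library after it. In βWT these were POLR1A (highest in library 1, 140.0 against 76.9), POLR1E (highest in library 1, 111.0 against 102.0), POLR1G (highest in library 1, 27.1 against 22.8), POLR1D (lowest in library 1, 135.0 against 154.0), POLR2A (highest in library 1, 162.0 against 78.3) and POLR2J (lowest in library 1, 46.9 against 55.0). In βMut1 these were POLR1A (highest in library 1, 67.7 against 47.0), POLR1E (highest in library 1, 109.0 against 94.0), POLR1G (highest in library 1, 20.5 against 14.6) and POLR3G (lowest in library 1, 31.9 against 42.5). In αWT these were POLR1E (lowest in library 8, 101.0 against 125.0) and POLR3A (lowest in library 8, 124.0 against 146.0). In βMut2 these were POLR1E (highest in library 1, 109.0 against 89.1), POLR1H (lowest in library 1, 107.0 against 157.0), POLR2G (lowest in library 1, 136.0 against 185.0), POLR2J (lowest in library 1, 59.5 against 81.1), POLR2K (lowest in library 1, 79.6 against 112.0), POLR2L (lowest in library 1, 136.0 against 196.0), POLR3C (lowest in library 3, 65.3 against 71.5) and POLR3GL (highest in library 1, 31.1 against 23.7). In αMut2 these were POLR2C (lowest in library 1, 129.0 against 149.0), POLR2G (lowest in library 1, 90.1 against 103.0) and POLR3E (highest in library 3, 111.0 against 109.0). In αRes2 these were POLR2K (highest in library 3, 123.0 against 72.9), POLR3C (highest in library 3, 95.9 against 72.7) and POLR3D (lowest in library 3, 67.6 against 79.0).

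The change with the HS2 G4 mutation differed between the intact and the HS3-deleted background, by the interaction term of edgeR's fit, for 5 members. The log2 differences of the changes were 0.559 for POLR1B (adjusted p = 0.00463), 0.625 for POLR1F (adjusted p = 1.89e-05), 0.246 for POLR2D (adjusted p = 0.0243), −0.272 for POLR3C (adjusted p = 0.0234) and 0.805 for POLR3G (adjusted p = 0.00432).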

How the results depend on the processing

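The 153 member calls followed here were those with the smallest adjusted p or a large log2 change in each comparison, not all calls. Of these, 153 kept direction and side of the threshold with DESeq2 and 152 with RLE size factors. The number was 140 without the count minimum and 149 with the replicate block. In no such setting did one of these values change sign. With numbers 1 to 4 alone 1 did, POLR1H in αRes1 against αWT at 0.055 (adjusted p = 0.704). Each of the 153 calls was refitted with each library of its comparison left out, and it no longer passed in 80 of 1651 such refits. Over all 29 members some calls moved with the method. Against αWT, the members lower went from 19 to 18 in αMut1 and from 4 to 6 in αMut2 with DESeq2. The causes were not tested.

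The number of members called moved by over 1.5 times as follows. αMut2 against αWT (5) gave 8 with DESeq2, 3 without the count minimum, 9 with only the lines compared and 3 with the replicate block. αRes1 against αWT (13) gave 24 with numbers 5 to 8. αRes1 against αMut1 (1) gave 2 with DESeq2, 3 with the replicate block, 22 with numbers 1 to 4 and 13 with numbers 5 to 8. αRes2 against αMut1 (6) gave 3 without the count minimum and 11 with numbers 1 to 4. αRes3 against αMut1 (4) gave 8 with only the lines compared, 9 with the replicate block and 16 with numbers 1 to 4. αRes4 against αMut1 (14) gave 9 without the count minimum. βMut-HS3Δ against WT-HS3Δ (10) gave 6 without the count minimum, 24 with the replicate block and 26 without the libraries numbered 1. The interaction (5) gave 3, 10 and 10 in these settings.

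With 1 library left out, the counts ranged from 16 to 19 in αMut1, 3 to 7 in αMut2, 10 to 15 in αRes1, 11 to 14 in αRes2, 17 to 19 in αRes3 and 14 to 17 in αRes4 against αWT. Against αMut1 they were 1 to 3 in αRes1, 3 to 8 in αRes2, 3 to 6 in αRes3 and 9 to 16 in αRes4. Against βWT they were 9 to 23 in βMut1, 15 to 24 in βMut2, 22 to 24 in WT-HS3Δ, 21 to 25 in βMut-HS3Δ and 20 to 22 in αWT. They were 4 to 14 for βMut-HS3Δ against WT-HS3Δ and 3 to 6 for the interaction. For αMut2 the count was 3 without αMut2 library 1 or 2, and for αRes1 against αMut1 it was 3 without αRes1 library 5. Depth limited POLR3F most, with as few as 52 reads in a library.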
